A study of Sus scrofa with 4 samples.

Results

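Of 18722 protein-coding gene models that RefSeq places on chromosomes 1 to 18 of the pig genome (build Sscrofa11.1), 4724 had no peak of open chromatin within 1 kb of either end in any of 4 libraries, which is 25.2% of the models. They include most of the keratins, defensins and taste receptors that the annotation names and most of the genes on marker lists of liver, lymphocytes and milk, and 1942 of them carry only a LOC number. A further 12899 models (68.9%) had an end peak in all 4 libraries and are used below as the contrast, and 1099 (5.87%) had one in 1 to 3 libraries. The assay was ATAC-seq, which uses Tn5 transposase to insert sequencing adapters where DNA is accessible. It was applied to porcine fetal fibroblasts (PFFs), cells cultured from skin and starved of serum in both groups. The 2 control libraries (control 1 and control 4) came from cells labelled wild type with the vector pTK-642, and the 2 BRG1 libraries (BRG1 1 and BRG1 4) from cells labelled as over-expressing BRG1, with pTK-642-BRG1. BRG1 is the ATPase of the BAF chromatin remodelling complex, and such fibroblasts serve as nuclear donors in cloning. Whether the replicates are independent cultures, and how many cells carried the vector, is not said in the labels, so a p-value between groups measures only the spread between these libraries, which may be technical.

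A promoter in use is usually held free of nucleosomes, so that Tn5 can cut there and a peak is called. Promoters of genes needed by every cell are mostly open in any cell type, while those of genes reserved for another tissue are often packed in nucleosomes and give no peak. A peak does not measure expression, and accessible enhancers can lie inside or far from a gene whose promoter is not accessible. The gene table used here gives the lower and the higher coordinate of each model with no strand, so the start and the 3′ end of a gene are treated alike, and exonic, intronic and UTR positions cannot be given. A missing peak means that none was called at the depth of these libraries, and absolute depth is unknown.

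The models were chosen by the start and end of the called peaks, so their number, distances and chromosomes are described with no test. The control lists held 107475 and 105954 peaks (control 1, control 4), and the BRG1 lists 96367 and 90851 (BRG1 1, BRG1 4). Taken one library at a time, 5166, 5186, 5288 and 5427 models lacked an end peak in the same order, and 4724 of each were shared by all. Of 27 fibroblast markers, 26 had an end peak in some library, among them COL1A1, COL1A2, COL3A1, VIM, THY1, PDGFRA and PDGFRB. DCN was the exception. Of 15 keratinocyte markers, 7 had none, and of 18 neuron markers, 4 had none. An end peak in some library was found in 13998 of all 18722 models, so these counts do not identify the cell type.

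Named gene families differed widely in how many of their models lacked an end peak. Against the 25.2% of all models, the share was higher in 36 of 52 gene lists, at least 75% in 11 lists and under 10% in 9. The lists and the models were chosen with earlier results of these libraries known, and members of a family often lie side by side and share the same surroundings, so these shares describe the annotation and are no test.

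**Figure D1:**
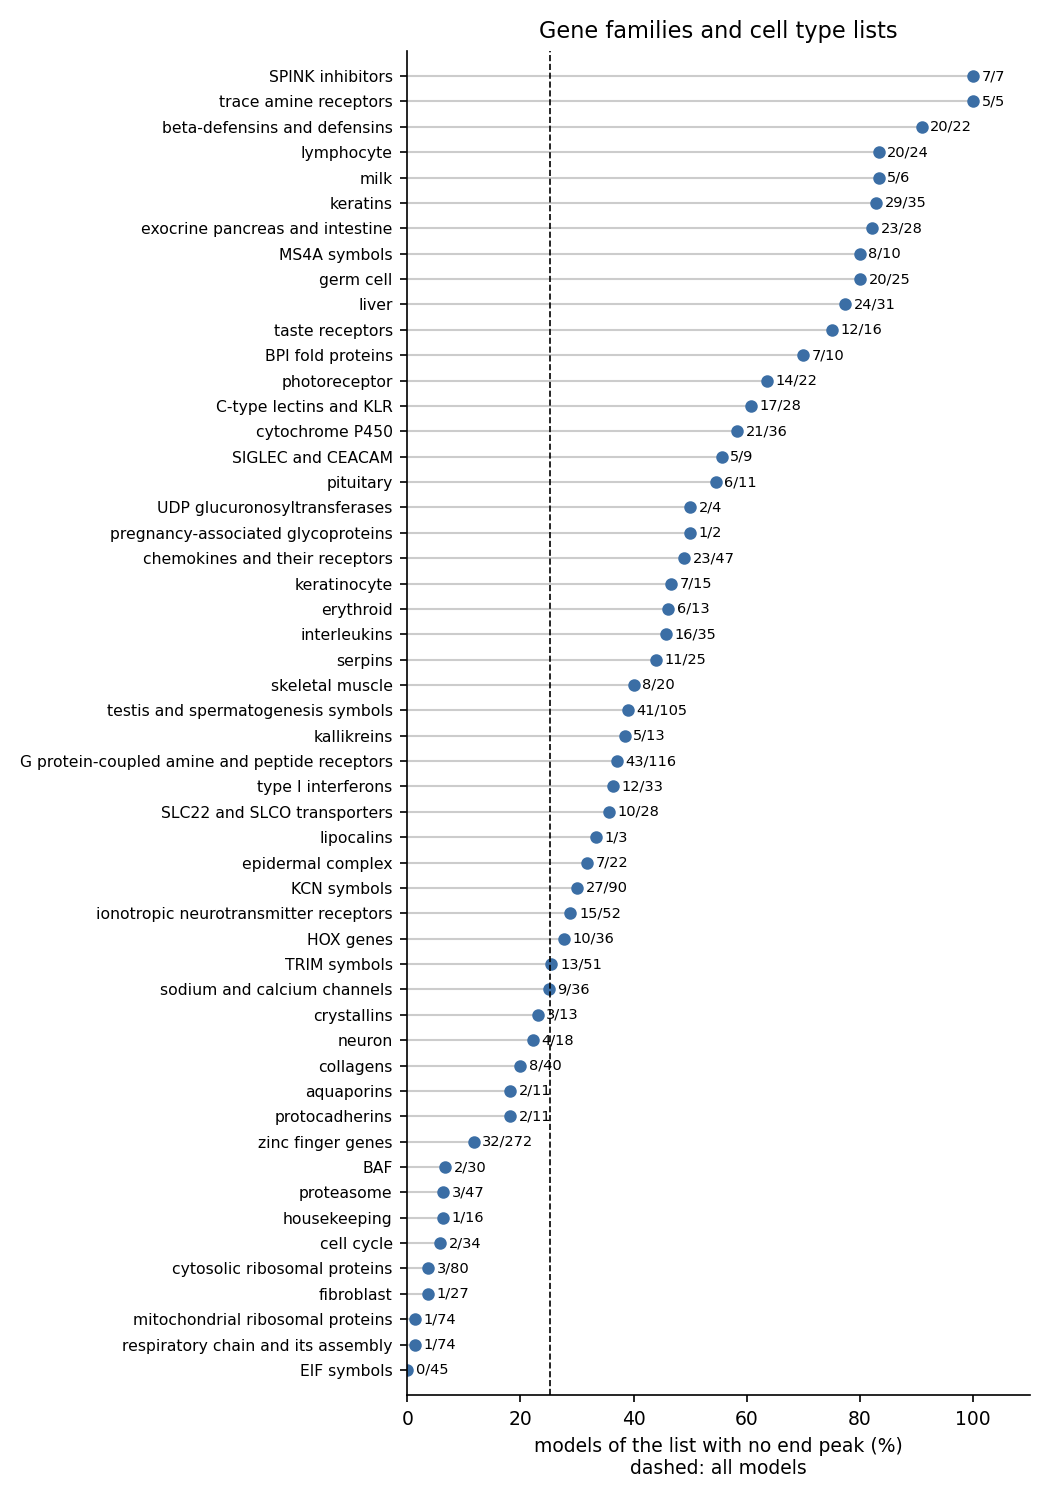
Share of the models on each gene list that had no peak within 1 kb of either end in any of the 4 libraries (horizontal axis, percent), with the number of such models over the number of models beside each point. The dashed line is the 25.2% of all 18722 models, and the lists run from SPINK inhibitors and trace amine receptors at 100% to translation initiation factor symbols (EIF) at 0%.

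Receptors that sense chemicals outside the body were among the lists with the highest shares. All 5 trace amine receptors, most of which detect volatile amines in the nose, lacked an end peak, and TAAR1 to TAAR5 lie together within 67.3 kb of chromosome 1. Among taste receptors, 12 of 16 had none. These were all bitter receptors of the TAS2R group, while TAS1R1, TAS1R2 and TAS1R3, the subunits of the sweet and umami receptors, and TAS2R16 had an end peak. TAS2R38, the receptor for bitter thiourea compounds (chromosome 18, 7982188 to 7983921), lay 3193 bp (control 1) and 3274 bp (control 4) from the nearest peak in the control libraries, and 3362 bp (BRG1 1) and 3312 bp (BRG1 4) in the BRG1 libraries. No library stood apart for this gene. For TAAR5 (chromosome 1, 31104142 to 31105153), in contrast, the nearest peak was 4633 bp away in control 4 and 38283, 38380 and 38275 bp away in control 1, BRG1 1 and BRG1 4, so that 1 control library held a peak the others lacked. Receptors for neurotransmitters and hormones stood closer to the background, with 43 of 116 G protein-coupled amine and peptide receptors and 15 of 52 ionotropic receptors without an end peak.

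Keratins, the intermediate filaments of epithelia and hair, had 29 of 35 models (82.9%) in the set. They fall into the 2 clusters where keratin genes reside in mammals, 12 within 523.1 kb of chromosome 5 and 17 within 663.4 kb of chromosome 12. KRT5, a keratin of basal epidermal cells (chromosome 5, 17862047 to 17868397), lay 64586, 64602, 64583 and 64601 bp from the nearest peak in control 1, control 4, BRG1 1 and BRG1 4, and had no peak in a flank that reached 50 kb to each side. KRT1, made in the layers above (chromosome 5, 18012922 to 18018582), lay 28732, 28755, 28805 and 28839 bp away in the same order. The distances of both genes hardly differed between libraries. The simple-epithelium keratins stood nearer to peaks: KRT18 (chromosome 5, 18217686 to 18221432) lay 1402, 1448, 1415 and 1361 bp away, and KRT19 (chromosome 12, 21115453 to 21119115) 1847, 1910, 1769 and 1897 bp. KRT8, the usual partner of KRT18, had an end peak in at least 1 library, as did KRT80, KRT2, KRT12, KRT10 and KRT28. Other epidermal genes followed in part: of 22 models of the epidermal complex, the 7 without an end peak were IVL, the cornified envelope protein involucrin, S100A7, CRNN, HRNR, RPTN, TCHH and TCHHL1, and most S100 genes of the same region had one. TP63, the master regulator of epidermis (chromosome 13, 127115990 to 127347082), had no end peak and 2, 2, 3 and 3 peaks inside the gene, and E-cadherin, CDH1 (chromosome 6, 18075487 to 18155986), had 3, 3, 4 and 3.

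Host defence genes were a further large group. Of 22 defensins and related antimicrobial peptides, 20 (90.9%) lacked an end peak, 5 of them in 71.1 kb of chromosome 7 and 8 in 266.3 kb of chromosome 17. DEFB133 (chromosome 7, 43970402 to 43975033) lay 21280, 21283, 21289 and 21325 bp from a peak in control 1, control 4, BRG1 1 and BRG1 4. The 4 libraries gave nearly the same distance. All 7 SPINK inhibitors of serine proteases and 7 of 10 BPI fold proteins of mucosal surfaces belonged to the set. So did 17 of 28 C-type lectin (CLEC) and KLR models and 8 of 10 MS4A genes. Chemokines and their receptors stood at 23 of 47. The models without an end peak included the lymphocyte homing ligands CCL19, CCL21 and CXCL13 and 8 of 10 CCR receptors, and those with one included CCL2, CXCL8 and CXCL12, which stromal cells are known to secrete. Among interleukins it was 16 of 35. The T cell products IL2, IL4, IL9, IL17A, IL17F, IL21 and IL22 lacked an end peak, while IL5 and IL13, which are also T cell products, had one. IL6, IL11, IL1A, IL1B, IL33 and IL34 had one as well. The remaining interleukins also went both ways: IL7, IL10 and IL23A were among those without an end peak, and IL12B, IL15, IL16 and IL27 among those with one. IL2 (chromosome 8, 101640938 to 101645683) lay 68623, 68637, 70265 and 68628 bp from the nearest peak in that library order.

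Type I interferons gave 12 of 33 models (36.4%), 11 of them within 534.5 kb of chromosome 1. IFNB1, the interferon that fibroblasts make when infected (chromosome 1, 201850935 to 201851495), lay 3404, 3405, 3467 and 3404 bp from the nearest peak, a distance equal to within 63 bp in all 4 libraries. The calls differed by subfamily: 3 of 11 IFN-ALPHA and 0 of 11 IFN-DELTA models lacked an end peak. Every IFN-OMEGA model on the list lacked one. Copies within a subfamily can be much alike, so whether a short read could be placed on 1 of them is uncertain, and so are the calls at their ends. The part that read placement plays was not tested.

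Markers of tissues other than connective tissue mostly lacked end peaks. The shares were 20 of 24 lymphocyte models, 5 of 6 milk models, 23 of 28 for pancreas and intestine, 20 of 25 for germ cells, 24 of 31 for liver and 14 of 22 for photoreceptors. They were lower for pituitary (6 of 11), red cells (6 of 13), skeletal muscle (8 of 20) and neurons (4 of 18), the last below the background. CRP, GZMA and TF each stand for 2 models in these counts, and 1 of the TF models had an end peak. Genes of the same tissue differed in what surrounded them. CSN2, which encodes beta-casein (chromosome 8, 66914231 to 66922636), lay 41707, 41633, 41691 and 53081 bp from the nearest peak in control 1, control 4, BRG1 1 and BRG1 4, in a run of 14 adjacent models without an end peak. MYH4 of fast muscle (chromosome 12, 55190545 to 55216294) lay 77540, 77454, 77532 and 77482 bp away. These are remote genes, with no difference between libraries except BRG1 4 at CSN2.

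Other tissue genes had peaks close by or inside. ALB, the albumin gene (chromosome 8, 69643427 to 69663152), had a peak 1432 bp from its ends in each control library. None lay nearer than 7291 bp in BRG1 1 and 7330 bp in BRG1 4, so the groups did not overlap at this gene. ALB was chosen after its values were seen, and the BRG1 lists were shorter as a whole. How often distances separate the groups over all models was not counted. CD4, the T helper co-receptor (chromosome 5, 63892129 to 63918547), held 1, 2, 1 and 1 body peaks, and CYP7A1, the rate-limiting enzyme of bile acid synthesis (chromosome 4, 74343101 to 74372628), held 4, 4, 3 and 4. NEB, which encodes the giant muscle protein nebulin (chromosome 15, 546187 to 766131), held 5, 7, 5 and 5. None of the last 3 genes separated the groups. Of the models long enough to have a part over 1 kb from both ends, 11 of 22 liver models and 8 of 20 lymphocyte models had a peak there, against 2 of 29 keratins and none of 5 taste receptors.

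Genes for machinery that every cell needs were nearly absent. None of 45 EIF symbols, mostly translation initiation factors, lacked an end peak, nor did more than 1 of 74 mitochondrial ribosomal proteins, 1 of 74 respiratory chain genes, 3 of 80 cytosolic ribosomal proteins, 3 of 47 proteasome genes, 2 of 34 cell cycle genes, 2 of 30 BAF subunits and 1 of 16 housekeeping genes. Several of these few are the tissue-restricted copies of their family: RPL10L and PSMA8 are known from testis, and PSMB11 from thymus. The mitochondrial exception, MRPL4, lay 1002 bp from a peak, 2 bp outside the window.

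Most of the exceptions had peaks inside the gene or close by. CCNE2, which encodes cyclin E2 (chromosome 4, 41802090 to 41821870), had a strong peak inside the model: the nearest one lay 1571 bp in from the lower end and ranked at percentile 98.4 of its list by −log10 p. The best body peak of CCNE2 ranked high in every library, at percentiles 98.4, 97.4, 98.3 and 99.3 in control 1, control 4, BRG1 1 and BRG1 4. The BAF gene BICRAL (chromosome 7, 37852153 to 37933599) had its nearest peak 1161 bp inside, at percentile 88.1, and CDKN2B, an inhibitor of G1 kinases (chromosome 1, 200666250 to 200770880), 1183 bp inside, at 77.2. At BCL7B, another BAF subunit (chromosome 3, 10850347 to 10887485), the peak nearest to an end was 4218 bp outside the model and lay at an end of TBL2. BCL7B also held 4 body peaks in every library. The best ranked at percentiles 85.0, 88.3, 84.2 and 87.8 in control 1, control 4, BRG1 1 and BRG1 4. DCN, the fibroblast proteoglycan decorin (chromosome 5, 91678601 to 91713925), held 2, 3, 1 and 2 body peaks, the nearest to an end at 2927 bp and percentile 7.30 and the best at percentiles 62.4, 46.9, 47.5 and 68.8 in control 1, control 4, BRG1 1 and BRG1 4.

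For B2M and RPL18 the model named here is 1 of 2 that bear the symbol, and the other had an end peak. In all, 17 of the models without an end peak shared a symbol with another model (13 symbols, also NANOG, TF and CLIC1), and for 9 of them the other model had an end peak. The B2M model counted here (chromosome 1, 126865767 to 126878501) had a body peak at percentiles 98.3, 97.3, 96.6 and 95.9 in control 1, control 4, BRG1 1 and BRG1 4.

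HOX genes, which set position along the body axis, were split by cluster. Of 36 models, 10 (27.8%) had no end peak, namely 3 in the HOXC cluster (HOXC12, HOXC11, HOXC4), 4 in HOXB (HOXB1, HOXB3, HOXB5, HOXB6) and 3 in HOXD (HOXD12, HOXD9, HOXD10), and none of the 11 HOXA genes was among them. Peaks were close to all 10: the nearest lay between 1112 and 4109 bp from an end, with a median of 1374.5 bp. HOXD10 (chromosome 15, 81911372 to 81921164) lay 1112, 1112, 1112 and 1114 bp from a peak and held 2 body peaks in every library. With a window of 3 kb in place of 1 kb only 1 HOX gene remained, and with 5 kb none, while keratins went from 29 to 24 and 20, liver models from 24 to 13 and 9, lymphocyte models from 20 to 12 and 7, and germ cell models from 20 to 15 and 11.

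Outside the named families, models with no symbol of their own made up much of the set. Of 3016 models named only by a LOC number, 1942 (64.4%) lacked an end peak, against 2782 of 15706 with a gene symbol (17.7%). LOC models were 41.1% of the set and 6.92% of the models with an end peak in all 4 libraries. The table gives no product names, so what the LOC models encode is not stated here. Over the whole set, 66.9% of models had 1 transcript accession, against 39.9% of the contrast models. A curated (NM) transcript was found for 16.8% of the set and 21.6% of the contrast models, and the order turned among models with a symbol, with 27.8% and 23.0%.

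Models of the set were shorter. Their median length was 10177 bp (quartiles 2376.5 and 33839 bp), against 25622 bp in the contrast models. The share without an end peak was 70.2% under 2 kb (1079 of 1537), 30.3% from 2 to 5 kb, 24.3% from 5 to 20 kb, 17.7% from 20 to 100 kb and 16.9% at 100 kb or more. Length and naming each went with the share: under 2 kb it was 84.1% of LOC models and 36.5% of models with a symbol, and at 100 kb or more 46.7% and 15.7%. A short model has less sequence within 1 kb of its ends, since the windows of its 2 ends overlap. Length, copy number and naming cannot be told apart here as reasons for a missing peak.

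**Figure D2:**
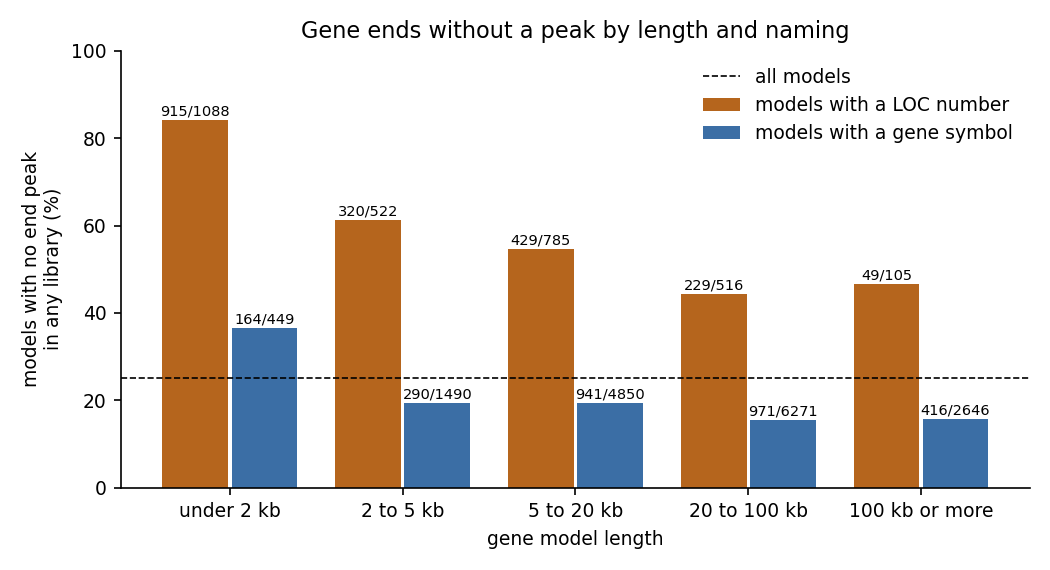
Share of gene models with no end peak in any library (vertical axis, percent) by model length, for models named by a LOC number and models with a gene symbol, with counts above each bar. The LOC bar is the higher one in every length class, and in both kinds of model the highest bar is the one under 2 kb, with 84.1% and 36.5%.

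One narrow length class stood out. From 900 bp to just under 1000 bp the set held 485 models and the rest of the annotation 26. Of the 485, 471 had a LOC number, 411 had a length that is a multiple of 3, as an open reading frame without introns or UTR would have, and 383 lay in runs of at least 10 neighbouring models without an end peak. The next class, up to 1099 bp, held 115 models of the set and 24 others. Over all models under 2 kb, a length divisible by 3 was found in 60.8% of the set and 41.8% of the contrast models.

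The models were clustered along the chromosomes. Taking all protein-coding models in order of start, the model that followed one without an end peak also had none in 46.7% of cases, against 25.2% of all models. They formed 2521 runs of neighbours, of which 1817 held a lone model (38.5% of the set). Runs of at least 10 numbered 50 and held 1061 models (22.5%). Chromosome 9 had the highest share without an end peak, 480 of 1192 models (40.3%), before chromosome 2 with 651 of 1998 (32.6%) and chromosome 5 with 30.1%, and the lowest were chromosome 16 with 16.2% and chromosome 10 with 17.7%. With the models of long runs left out, chromosome 9 stood at 24.1% and chromosome 2 at 20.1%. Among models with a symbol the shares kept to a narrower range, from 13.7% on chromosome 16 to 22% on chromosome 18.

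**Figure D3:**
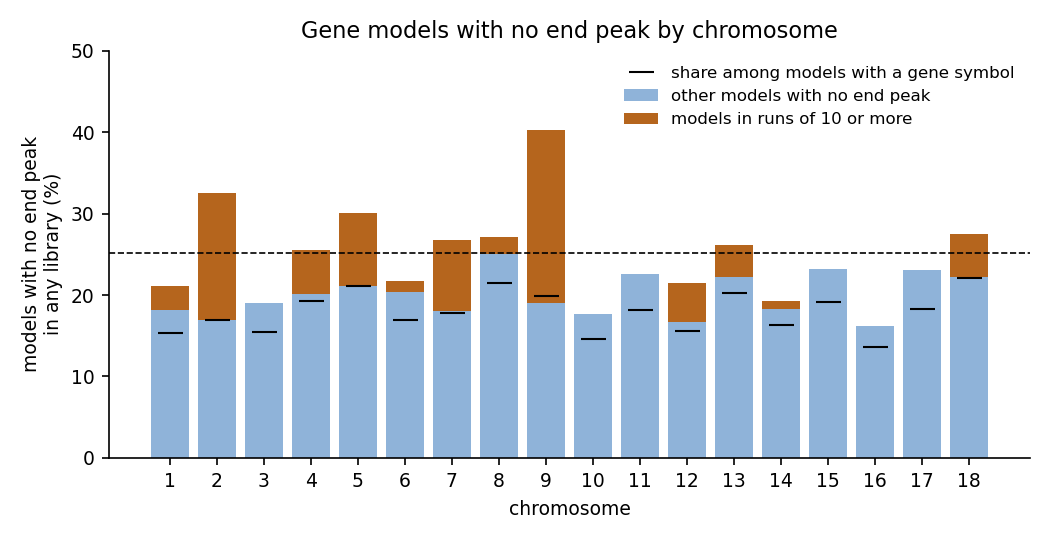
Share of the gene models of each chromosome (horizontal axis) that had no end peak in any library (vertical axis, percent), with models in runs of 10 or more such neighbours stacked on the others, the share among models with a gene symbol as a black dash and the 25.2% of all models as a dashed line. Chromosomes 9 and 2 stand highest at 40.3% and 32.6%, with the largest run parts, and 6 chromosomes have no such run.

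The longest run held 94 models on chromosome 2, from 52447149 to 56862981, of which 91 had a LOC number; the named ones were LYPD8, TRIM58 and GCSAML. Only 2 regions with a peak lay in these 4415.8 kb. The farthest model of the whole set, LOC110255196, lay in it, 1491426 bp from the nearest peak of any library. A run of 46 LOC models on chromosome 2 (62630428 to 64575108) spanned 1944.7 kb without any peak. On chromosome 9, a run of 64 models (4711115 to 5474396) enclosed the haemoglobin genes HBB and HBE1 and 62 LOC models, and had 6 regions in its span. Another of 62 models lay before it (3464556 to 4143401), with C9H11orf42 the only symbol, and a run of 31 lay between them (4282587 to 4654246). The fifth held 36 LOC models on chromosome 5 (20112632 to 20708370). Median model length was 948, 2696.5, 979.5, 955.5 and 1660.5 bp in the runs of 94, 64, 62, 46 and 36.

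HBB, the adult beta-globin gene (chromosome 9, 4800683 to 4801941), lay 5862, 5732, 5840 and 5872 bp from the nearest peak in control 1, control 4, BRG1 1 and BRG1 4, and HBE1, an embryonic globin gene (chromosome 9, 4818206 to 4820243), 6941, 6931, 6957 and 6621 bp. The globin genes were thus nearer to a peak than most of the run around them. A run of 22 on chromosome 12 held KRT19, KRT15, KRT36, KRT35, KRT32, KRT31, KRT34 and KRT33A with 14 LOC models, and 1 of 16 on chromosome 7 held 5 defensin genes with the interleukins IL17A and IL17F and the sperm proteins CRISP1, CRISP2 and CRISP3.

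Long runs and lone models differed in length, naming and surroundings. Models in runs of at least 10 had a LOC number in 88.5% of cases, a median length of 1230 bp and a median of 54652 bp to the nearest peak. Lone models had a LOC number in 18.7%, a median length of 18489 bp and a median distance of 3043 bp. The flank from 1 to 50 kb on both sides held a median of 0 regions with a peak for models in long runs, 52.6% of which had none, and a median of 8 for lone models, equal to the 8 of the contrast models. By definition the models next to a lone one had an end peak, so the equal medians are partly set by the grouping. An empty flank was found for 2.81% of lone models and 1.05% of contrast models. Neighbours in a run share their surroundings, and no end within a run has a peak, so run length and distance are not independent measures.

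**Figure D4:**
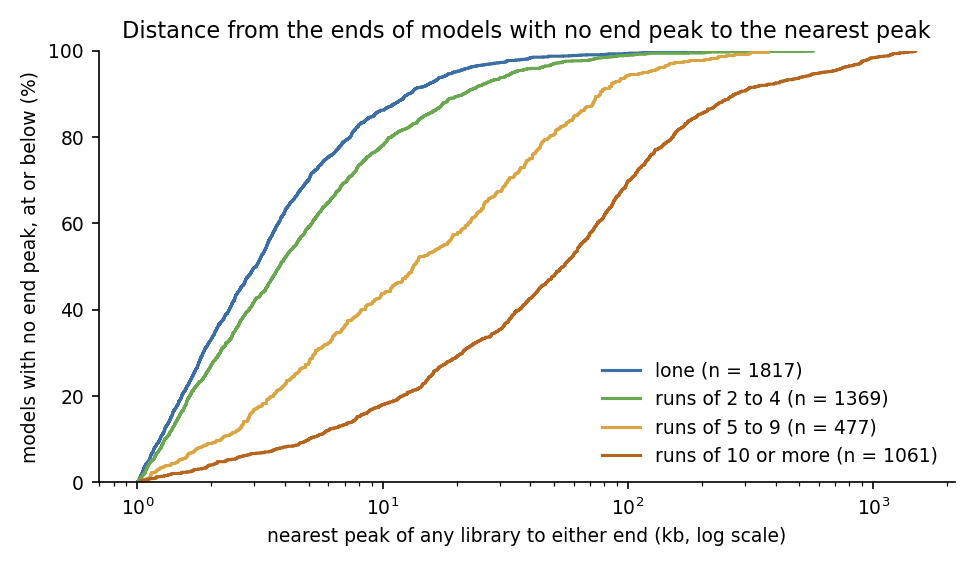
Distance from either end of a model without an end peak to the nearest peak of any library (horizontal axis, kb, log scale) against the percent of models at or below that distance, for lone models and for runs of 2 to 4, 5 to 9 and 10 or more neighbours. The curves shift to longer distances as runs grow, from a median of 3043 bp for lone models to 54652 bp for runs of 10 or more.

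The models ranged from just outside the window to remote from any peak. The nearest peak was 1 to 2 kb from an end for 1063 models (22.5%), 2 to 5 kb for 1263, 5 to 20 kb for 1210, 20 to 100 kb for 815 and over 100 kb for 373, with a median of 5097.5 bp. LOC models were 19.9% of the nearest class, 77.5% of those at 20 to 100 kb and 93.6% of those beyond 100 kb. Just inside the rule, the nearest peak lay 1001 bp from PRICKLE4, 1002 bp from IFITM1, MRPL4 and ANKRD65 and 1003 bp from ZNF764. Just outside it, NLRC3 had a peak at 1000 bp, OMP at 997 bp and POU3F3 at 995 bp. Membership at this border rests on a few base pairs of a peak's edge. For 1151 models (24.4%) the nearest region lay inside the model itself and at no model's end, for 789 (16.7%) it lay outside and at an end of another model, and for 2711 (57.4%) outside and at no end.

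Peaks deep inside the genes were not used by the rule. A gene body was taken as the part of a model over 1 kb from both ends, which 3644 models of the set had. Of these, 2052 (56.3%) had a body peak in some library, and 1709 had one in all 4 libraries. In contrast models an end peak can reach into the body, which the rule forbids in the set, so for them a peak was counted only where it lay wholly in the body (65.7%, in place of 72.9% with any overlap). This way of counting was added after the values were seen, and it narrowed the gap. Among models with a symbol the shares were 66.4% in the set and 66.8% in the contrast models. By length they were 13.8% against 8.66% from 2 to 5 kb, 52.9% against 43.9% from 5 to 20 kb, 82.1% against 82.7% from 20 to 100 kb and 96.9% against 98.6% at 100 kb or more. By this count the share of named genes with a body peak was higher in the set than in the contrast models below 20 kb and slightly lower above. The order below 20 kb rests on the added way of counting. By any overlap the contrast models stood higher than the set, at 28.1% from 2 to 5 kb and 55.0% from 5 to 20 kb. Among LOC models the set was lower in each class, with 6.56% against 7.36%, 26.6% against 39.2%, 59.4% against 74.6% and 87.8% against 100% in the same order. Models are not replicates, so no test was made. Where there was a body region, the one nearest to an end lay a median of 3560 bp inside, and within 5 kb for 1301 models (63.4%). A single region was found in 748 models and at least 10 in 221.

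The genes with the most body peaks were long genes. PDE4D, a cAMP phosphodiesterase (chromosome 16, 37897300 to 39406534), held 76, 80, 75 and 70 peaks in control 1, control 4, BRG1 1 and BRG1 4, and FRMD4A, a scaffold protein of epithelial polarity (chromosome 10, 47384867 to 48048948), held 60, 59, 54 and 52. PSD3, HDAC9, ADAMTSL1, PALLD, DLC1, PHACTR1, SLC9A9 and ENOX1 followed. PALLD encodes the actin-bundling protein palladin (chromosome 14, 20678456 to 21020125), with 40, 40, 41 and 32 peaks. DLC1, a GTPase-activating protein (chromosome 17, 1169709 to 1637171), held 43, 37, 38 and 35. In ADAMTSL1 (chromosome 1, 203936654 to 204944236) the counts were 48 and 45 in the control libraries and 34 and 33 in the BRG1 libraries. The groups did not overlap there, nor in PDE4D, FRMD4A, HDAC9 and PHACTR1. Those of PALLD, DLC1, SLC9A9 and ENOX1 overlapped, and those of PSD3 met at 43. The BRG1 lists were shorter as a whole, and how many of all models separate in this way was not counted.

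At the other extreme were long genes with no peak anywhere. TMEM132D (chromosome 14, 25144440 to 25919018) spans 774579 bp and lay 99492, 99407, 99422 and 99318 bp from the nearest peak. HS3ST4, a heparan sulfate sulfotransferase (chromosome 3, 20543833 to 21056108), spans 512276 bp and lay 380583, 380607, 399493 and 399307 bp away. SHISA9, SHISA6, FAM135B, ADAMTS18, BAZ2B and SYCP1, a protein of the meiotic synaptonemal complex, were further examples, with 2 LOC models. SHISA9 (chromosome 3, 29966481 to 30272800) lay 38986, 48412, 48445 and 53241 bp from a peak. The control and BRG1 values at HS3ST4 did not overlap, and those at TMEM132D did. At SHISA9 the values of control 4 and BRG1 1, 48412 and 48445 bp, were nearly the same. The nearer peak of control 1 ranked at percentile 0.310 of its list. The share of all models whose distances separate by group was not counted.

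Some body peaks ranked with the strongest of their library. In LOC100737183 a region of 426 bp on chromosome 8 (16915072 to 16915497) had the highest mean percentile of −log10 p of any body region called in all 4 libraries, with authors' fold values of 41.2, 41.6, 42.0 and 42.1 in control 1, control 4, BRG1 1 and BRG1 4. In PDE4D a region of 376 bp (chromosome 16, 37934884 to 37935259) had folds of 45.2, 45.8, 45.6 and 40.8. Wider regions were found in KAT6B, a histone acetyltransferase (chromosome 14, 77404261 to 77405896, 1636 bp), and RBM15, an RNA-binding protein (chromosome 4, 109785654 to 109787396, 1743 bp), the first 13471 bp and the second 4159 bp from the nearer end of the model. RPP40, BBS12, MAMSTR, OPA3, MYO1F and NUDT16L1 completed the 10 highest, and their regions lay 14132, 4738, 3753, 2865, 2263 and 1515 bp from an end. Of these 10 regions, only that in BBS12 lay at an end of another model.

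Over the set as a whole, 8900 regions with a peak lay in the gene bodies. Peaks of all 4 libraries made up 59.7% of them, against 62.0% of all 116392 regions on these chromosomes. The median percentile of the body peaks by −log10 p within their own list was 46.6, 46.4, 46.9 and 46.9 in control 1, control 4, BRG1 1 and BRG1 4, close to the middle of each list.

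The comparison of BRG1 with control cells asks whether over-expression of the remodeller opened or closed sites in these genes. The bodies held 7772 peaks in control 1 and 7688 in control 4 against 6885 in BRG1 1 and 6517 in BRG1 4, which is 7730 ± 59.4 in control and 6701 ± 260 in BRG1 libraries (SD, n = 2 each). The BRG1 libraries were lower and the groups did not overlap (two-sided exact permutation test, p = 0.33, the smallest that 2 against 2 allows). The lists as a whole differed in the same direction on these chromosomes, with 102829 and 101377 peaks in control and 92315 and 87057 in BRG1 libraries, so that the bodies of the set took 7.56% and 7.58% of the peaks in control and 7.46% and 7.49% in BRG1 libraries (exact permutation p = 0.33). With lists cut to the same length, the BRG1 to control ratio of body peaks was 1.00 in place of 0.867. The difference in body peaks was therefore of the size of the difference in list length, and the part that depth plays in it was not tested.

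Per megabase of body the set held 40.7 and 40.2 peaks in the control and 36.0 and 34.1 in the BRG1 libraries, and the contrast models 44.8, 44.1, 39.7 and 37.6, counting only peaks that lay wholly in a body. In control 1, control 4, BRG1 1 and BRG1 4 the density in the set was 90.8%, 91.3%, 90.6% and 90.8% of that in contrast models. The 4 values lay close together, with group means of 91.1 ± 0.357% in control and 90.7 ± 0.124% in BRG1 libraries (SD, n = 2, exact permutation p = 0.33). In models of 100 kb or more alone, the set held 34.8, 34.3, 30.5 and 29.0 peaks per megabase and the contrast models 40.6, 39.7, 35.5 and 34.0 in the same order. Over all lengths, counting any overlap gave 85.0%, 85.7%, 84.5% and 83.0% of the density in contrast models, in the same order. The part that length and naming play in the lower values of the set was not tested.

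**Figure D5:**
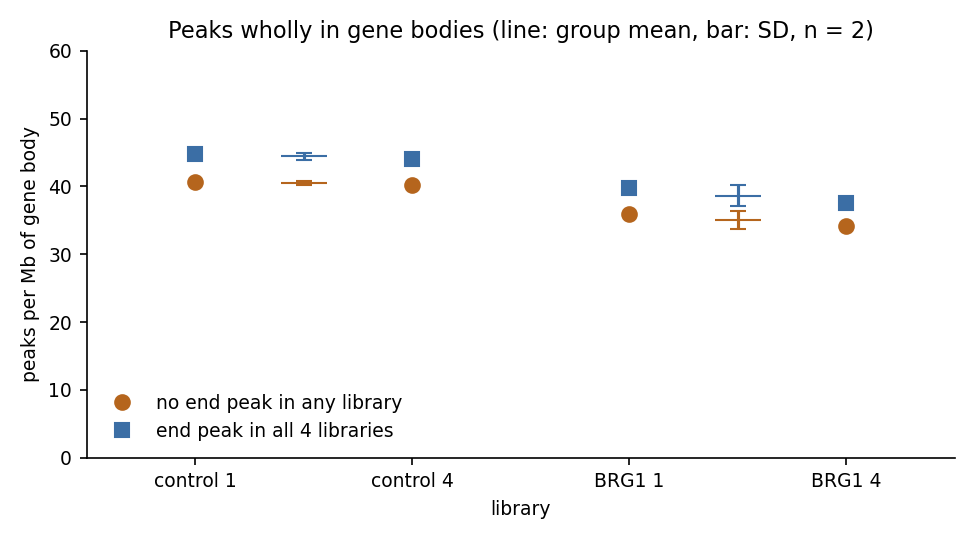
Peaks that lie wholly in a gene body, per megabase of body (vertical axis), in each library, for models with no end peak in any library (circles) and models with an end peak in all 4 libraries (squares), with group means and SD (n = 2). In every library the circles lie below the squares, and the 2 BRG1 libraries lie below the 2 control libraries in both kinds of model.

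Few of the models had a body peak in both libraries of 1 group only. A body peak in both BRG1 libraries and in neither control library was found in 1 of the 3644 models with a body (0.0274%, against 0.262% of all 17183 models with one), and the reverse in 49 (1.34%, against 1.13%). In the models with an end peak that make up most of the 17183, a peak at the end can reach into the body, so the shares are not of like kind. With lists of equal length the counts were 14 and 18, so the imbalance between the directions went with the shorter BRG1 lists. Dropping a library, which loosens the condition, gave 9 to 23 and 83 to 132.

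Among the 49, the best body peak of each model, as the mean percentile of both control lists, ranked from 2.20 to 39.8, with a median of 16.1. TH, the tyrosine hydroxylase of catecholamine synthesis (chromosome 2, 1499628 to 1506180), had 1 body peak in each control library, at percentiles 38.7 and 40.9, and its nearest peak lay at 1899 and 1919 bp in control and at 4682 and 4840 bp in BRG1 libraries. BRDT, the testis bromodomain protein (chromosome 4, 125004897 to 125062208), had body peaks at percentiles 34.7 and 29.2 in the control libraries. CCKBR, a gastrin receptor (chromosome 9, 3409222 to 3419513), had them at 19.4 and 35.1. LOC110256111, LOC100156277, HS3ST5, TMEM211, SLC5A2, CCDC152 and OVGP1 were the other 7 of the 10 highest.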

How the data were processed

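Peaks were deposited by the authors as 1 narrowPeak list per ATAC-seq library. MACS2, SAMtools, Bowtie, BWA and FastQC are listed without version or role, with the build Sscrofa11.1, per the submitters' processing notes. Each deposited fold is a ratio over background, and the deposited −log10 p-value, −log10 q-value and score came from the authors' caller. These values were used only to rank or filter peaks within a list, as percentiles of −log10 p. The Tn5 shift, duplicate handling and caller settings, all not given in the sources used here, can change which weak peaks are called. The lowest −log10 q was 1.31 to 1.35, and the median width was 396 to 404 bp in 3 lists and 541 bp in BRG1 4.

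Gene models came from a RefSeq table of the same build, with no strand, exons or product names. A model had an end peak where any interval came within 1 kb of its lower or higher coordinate. Peaks of the 4 libraries that overlapped by at least 1 bp were merged into regions. A body peak overlapped the part of a model over 1 kb from both ends by at least 1 bp; for comparisons with models that had an end peak, only peaks wholly in that part were counted. Densities count a peak once for each model whose body holds it, and the other body counts take each peak once. A run is a stretch of neighbouring models without an end peak in order of start. Groups were compared over the 4 libraries with an exact permutation test, two-sided (smallest p 0.33), and the scripts were tested on simulated data.

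The models and the gene lists were chosen with earlier results of these data known. Some list patterns were corrected after the files were seen, because they took in other genes (for example receptors among the interferons and interleukins), and some lists were renamed or dropped. A further 3 lists matched no model by symbol, those of olfactory receptors, vomeronasal receptors and keratin-associated proteins. Models named only by a LOC number could not be searched for these families. Genes were named by a rule: the 10 with the most body peaks, the 10 longest with no peak, the 5 longest runs, up to 4 per list, every exception on the fibroblast, housekeeping, BAF, ribosome and cell cycle lists, those next to 1 kb, the 5 farthest, and up to 10 per direction or rank of body peaks. Other genes named were chosen after their values were seen. A few genes that the rule names are not reported here. Python 3.11.15, numpy 2.4.6, pandas 2.3.3, scipy 1.17.1 and matplotlib 3.10.9 were used.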

Additional observations from a re-analysis of the deposited data

How the results depend on the processing

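The number of models without an end peak was 5606 with a window of 500 bp, 3093 with 3 kb and 2398 with 5 kb, 4948 with peaks of a −log10 q of at least 5, 4941 with lists of equal length, 5224 by summits, and 4802 to 4828 when a library was left out. The BRG1 to control ratio of body peaks (0.867) was 0.862 at the higher q, 0.843 to 0.890 without a library, and 1.00377 with lists of equal length, which turned its direction. BRG1-only and control-only body calls (1 and 49) were 3 and 50 at the higher q, 14 and 18 with lists of equal length, and 9 to 23 and 83 to 132 without a library. Contrast models with a body peak were 72.9% by any overlap and 65.7% with peaks wholly in the body, an alternative chosen after seeing the data. Models in runs of at least 10 numbered 984 to 1105 under all alternatives run. The ratio of median lengths was 0.397, and 0.404 against all models with an end peak. Libraries shared a number only: the correlation, across models, between deviations of libraries with the same number was 0.03, and with the replicate block the body ratio was 0.866 (exact sign-flip p = 0.5), with 31 and 44 BRG1-only and 134 and 185 control-only calls within numbers 1 and 4. Promoter CpG content and families by product name were not run, since no promoter sequence or product name was used here. With 2 libraries a group and unknown depth, weak peaks limit every count.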

Other observations

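Grouping symbols by the letters before their first digit gave 220 prefixes with at least 10 models. Beside DEFB (17 of 18) and KRT, the prefixes with the highest shares of models without an end peak were TMPRSS, membrane-bound serine proteases of epithelia, with 9 of 10, NLRP, cytosolic sensors with several egg-specific members, with 11 of 13, and the chemokine receptors CCR and the MS4A genes with 8 of 10 each. The mucins (MUC) had 8 of 12, the myosin heavy chains (MYH) 6 of 10 and the CD antigens 37 of 81. Of the 9 TMPRSS models, 7 held a body peak, against 2 of the 11 NLRP models. No model lacked an end peak in 38 prefixes with 574 models, among them EIF (45 models), the Mediator subunits MED (28), the mitochondrial ribosomal proteins MRPS (27) and the kinases CDK (25). Prefixes were not chosen for their biology, and a prefix can join unrelated genes.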
